A study of Mus musculus with 8 samples.

Results

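The libraries described here come from alphaTC6, a line of alpha cells from the mouse pancreas, after transfection with a scramble small interfering RNA (siRNA) that served as the non-targeting control. They were chosen by their label alone and are 4 of the 8 libraries of the series, whose other libraries come from cells given siRNAs against Klf4 and were not used. Per the labels, the cells were of wild-type genotype (WT) and underwent lipofection in suspension (a reverse transfection) lasting 48 h, after which poly(A) RNA was sequenced. Replicates 1 and 2 belonged to batch 1 and replicates 3 and 4 to batch 2, without a statement of what the batches were. The 4 libraries are therefore a treated control, and untransfected cells were not part of the design. The alphaTC lines were established from pancreatic tumours of transgenic mice that express a viral large T antigen from the preproglucagon promoter, so they are dividing clonal cells and not islet cells. One protocol text speaks of isolated islets, although each of these samples is labelled as the cell line. The design text calls the replicates biological, but no label ties them to separate cultures, so the p-values below measure only the spread between these libraries, which may be technical.

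Pancreatic alpha cells make proglucagon, which the prohormone convertase PC2, encoded by Pcsk2, cuts to glucagon. In intestinal L cells the related convertase PC1/3, encoded by Pcsk1, cuts the same precursor to glucagon-like peptides. Alpha cells fire action potentials, take up amino acids and respond to adrenaline, to somatostatin from delta cells and to insulin from beta cells, and their identity rests on transcription factors such as PAX6, NKX2-2, ISL1 and the IRX family.

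The sequences before the start sites of 4 genes whose levels frame the results are shown first, from the RefSeq promoter table on GRCm38.p6, 5′ to 3′ on the gene's own strand. Each CG is in capitals, since the level classes described below differ in their content of this dinucleotide. Gcg encodes proglucagon, Ins1 an insulin, and Pcsk2 and Pcsk1 the convertases named above. Gcg lies at chr2:62483654-62483903 on the minus strand, Ins1 at chr19:52264047-52264296, Pcsk2 at chr2:143545883-143546132 and Pcsk1 at chr13:75089607-75089825, all 3 on the plus strand.
Gcg: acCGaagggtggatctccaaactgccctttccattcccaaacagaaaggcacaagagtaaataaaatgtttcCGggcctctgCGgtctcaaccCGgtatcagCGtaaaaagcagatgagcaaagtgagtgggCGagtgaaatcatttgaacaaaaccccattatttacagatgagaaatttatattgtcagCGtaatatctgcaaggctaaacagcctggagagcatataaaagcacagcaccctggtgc
Ins1: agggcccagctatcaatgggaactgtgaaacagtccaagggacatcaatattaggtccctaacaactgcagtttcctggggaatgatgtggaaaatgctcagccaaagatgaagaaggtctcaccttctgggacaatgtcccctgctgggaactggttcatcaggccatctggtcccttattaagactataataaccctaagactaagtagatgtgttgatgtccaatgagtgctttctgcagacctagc
Pcsk2: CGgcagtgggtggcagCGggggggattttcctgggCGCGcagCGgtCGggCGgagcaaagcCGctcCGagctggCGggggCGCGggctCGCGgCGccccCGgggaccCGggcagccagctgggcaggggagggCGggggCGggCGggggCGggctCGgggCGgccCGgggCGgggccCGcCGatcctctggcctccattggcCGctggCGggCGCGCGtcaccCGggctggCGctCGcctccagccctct
Pcsk1: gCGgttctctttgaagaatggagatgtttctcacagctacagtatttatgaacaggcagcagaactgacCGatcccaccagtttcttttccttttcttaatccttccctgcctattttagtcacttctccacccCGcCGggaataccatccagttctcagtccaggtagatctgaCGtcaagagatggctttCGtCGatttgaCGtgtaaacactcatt
The shown bases held 7 CG before Gcg, 0 before Ins1, 35 before Pcsk2 and 8 before Pcsk1. The stretch of Pcsk1 has 219 bases and the others have 250 each. The word TATAAA begins 24 bases before the Gcg start.

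A gene was called expressed when it reached at least 1 CPM (reads per gene over the library's total, after scaling of the totals by the TMM method) in each of the 4 libraries, and not detected when it had 0 counts in all of them. Genes between these were called low. Of 55536 annotated genes, 12278 (22.1%) were expressed, 16879 were low and 26379 (47.5%) were not detected. Of the 22028 protein-coding genes, 10993 (49.9%) were expressed, 5750 were low and 5285 (24.0%) were not detected. With 225790607 counts in all, a gene with 0 counts in every library could still stand at up to 0.0133 CPM, taking 3 counts as the limit and counting error alone. The expressed protein-coding genes had a median of 41.2 CPM with quartiles of 16.1 and 95.4 CPM, and the median over all protein-coding genes was 1.45 CPM. Every library had at least 10 CPM of 9131 genes, at least 100 CPM of 2424 and at least 1000 CPM of 50. Long noncoding RNA was sparse, with 237 of 5854 genes annotated as lincRNA and 208 of 2959 annotated as antisense expressed. An antisense gene's reads and those of its partner cannot be told apart here, because the use of strand in counting was not stated. Among 9941 processed pseudogenes, 390 passed the same level, and reads shared with the parent gene could contribute to them.

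**Figure D1:**
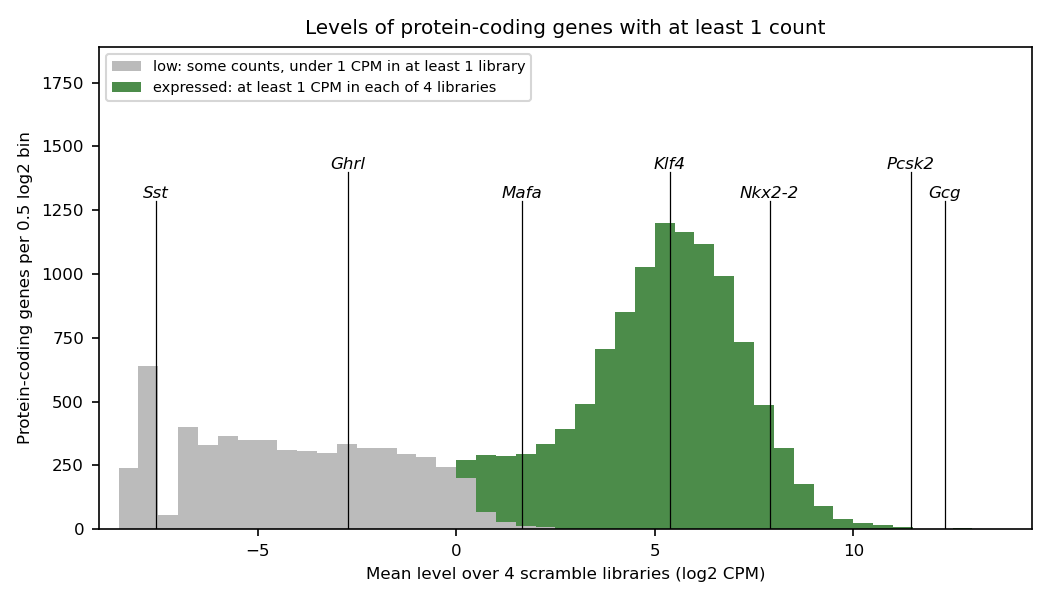
Number of protein-coding genes (y axis) by mean level over the 4 scramble libraries (x axis, log2 CPM, bins of 0.5), with expressed genes in green and low genes in grey. Genes with 0 counts are not drawn. Vertical lines mark Sst, Ghrl, Mafa, Klf4, Nkx2-2, Pcsk2 and Gcg, and the expressed genes form a peak at about the level of Klf4, with Gcg and Pcsk2 at its right end.

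The level classes differed in the sequence at their start sites. RefSeq windows of 300 bases, from 250 before to 50 after the start, were matched by symbol to 16522 genes (20150 windows). A window was counted as CG-rich when its CG dinucleotides exceeded 0.6 of the number predicted from its C and G content. CG-rich windows made up 72.9% of the 11277 windows of expressed genes, 26.9% of the 4916 of low genes and 8.87% of the 3957 of undetected genes, against 49.1% of all windows. The word TATAAA, on either strand (TATAAA or TTTATA), ran the other way, with 6.37% of windows of expressed genes, 13.4% of low genes, 27.1% of undetected genes and 12.1% overall. These are shares over windows, and a gene can have more than 1. The windows came from 8754 expressed, 4074 low and 3694 undetected genes. Windows are not independent, and no test was made of these shares. The window of Gcg belonged to the minority of windows of expressed genes on both counts, with a ratio of observed to predicted CG of 0.42 and a TATAAA. Pcsk2 had a ratio of 0.85 and no TATAAA. The window of Pcsk1, a gene with 0 counts, was also CG-rich at 0.72, whereas that of Ins1 had no CG.

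Levels of different genes were compared per length, as counts per kilobase of exon scaled to the same sum in each library (TPM). Mitochondrially encoded genes led this order, with mt-Nd1, a subunit of respiratory complex I, at 39833 ± 2490.0 TPM (SD, n = 4) and mt-Co1, a subunit of cytochrome oxidase, at 23542 ± 1152 TPM. Further down, mt-Nd2, another subunit of complex I, ranked 4 and mt-Rnr2, a mitochondrial ribosomal RNA, ranked 9. The mitochondrial genome took between 4.51% and 5.87% of the counts of a library. By the mean over the 4 libraries Gcg ranked 7 and was the first nuclear protein-coding gene, at 10847 ± 9310 TPM. In replicates 1 to 4 it ranked 15, 13, 4 and 7 by TPM. It was first among nuclear protein-coding genes in both libraries of batch 2 alone, since in both of batch 1 it was the fifth and Chga led. Next by the mean came Chga, the granule protein chromogranin A, at 4514 ± 463 TPM, then Ftl1, the ferritin light chain, at 3734 ± 473 TPM. Ptma, which encodes prothymosin alpha, had 3168 ± 121 TPM and Rbp4, a retinol carrier, had 3053 ± 244 TPM. Of the first 15 genes, only mt-Cytb over mt-Nd5 and mt-Nd4 over Chga had ranges over the 4 libraries that did not overlap those of the next gene. Compared within each library, mt-Co1 was also above mt-Nd2, mt-Nd2 above mt-Cytb, mt-Rnr2 above mt-Nd4 and Rbp4 above Hsp90ab1, the next gene after the 15, in 4 of 4 libraries, and the other neighbours changed order in at least 1 library. On the CPM scale, which does not correct for length, Gnas, the alpha subunit of the stimulatory G protein, also stood among the first 10 at 5288 ± 472 CPM, and 31 of the first 50 genes were shared by both orders. The 10 most abundant genes together took 5.72% to 8.74% of counts per library.

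Gm23935, Gm42418 and Mir6236, annotated RNAs that are also among the first 15 by TPM, followed neither batch. Gm42418 stood at 6540 CPM in replicate 1, 914 CPM in replicate 2, 768 CPM in replicate 3 and 16363 CPM in replicate 4. Replicates 1 and 4 were thus high and replicates 2 and 3 low, across the batches. Together with Gm24270 these RNAs took 0.749%, 0.112%, 0.0900% and 1.77% of counts in replicates 1 to 4, but 5.74%, 1.20%, 0.855% and 11.2% of the summed TPM, so that they lower the TPM of every other gene most in replicate 4. The share of mitochondrial counts was also higher in replicates 1 and 4, at 5.42% and 5.87%, than in replicates 2 and 3, at 4.51% and 4.63%. What part this plays in other levels was not tested, and Gcg followed the batches instead.

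Of the 8 islet hormone genes, Gcg alone was expressed (12.5%, against 49.9% of protein-coding genes). Gcg (ENSMUSG00000000394, chromosome 2, positions 62474530 to 62483650 of GRCm38, minus strand) had 1252 CPM in replicate 1, 1242 CPM in replicate 2, 8923 CPM in replicate 3 and 8794 CPM in replicate 4. The 2 libraries of a batch nearly coincided, while the batches lay 7.11-fold apart. In bulk RNA, fewer cells that express a gene and less of its RNA per cell cannot be told apart. Ins1 and Ins2, the insulin genes of the mouse, and Pyy, which encodes peptide YY, had 0 counts in all 4 libraries. Sst, the somatostatin gene of delta cells, had 1 count in total and Ppy, the pancreatic polypeptide gene, had 9. Ghrl, the ghrelin gene, had 35 counts, or 0.125, 0.0848, 0.203 and 0.189 CPM in replicates 1 to 4. Iapp, whose product amylin is released with insulin by beta cells, had 38 counts. These traces stayed at or under 0.30 CPM in each library, while Gcg had at least 1242 CPM.

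**Figure D2:**
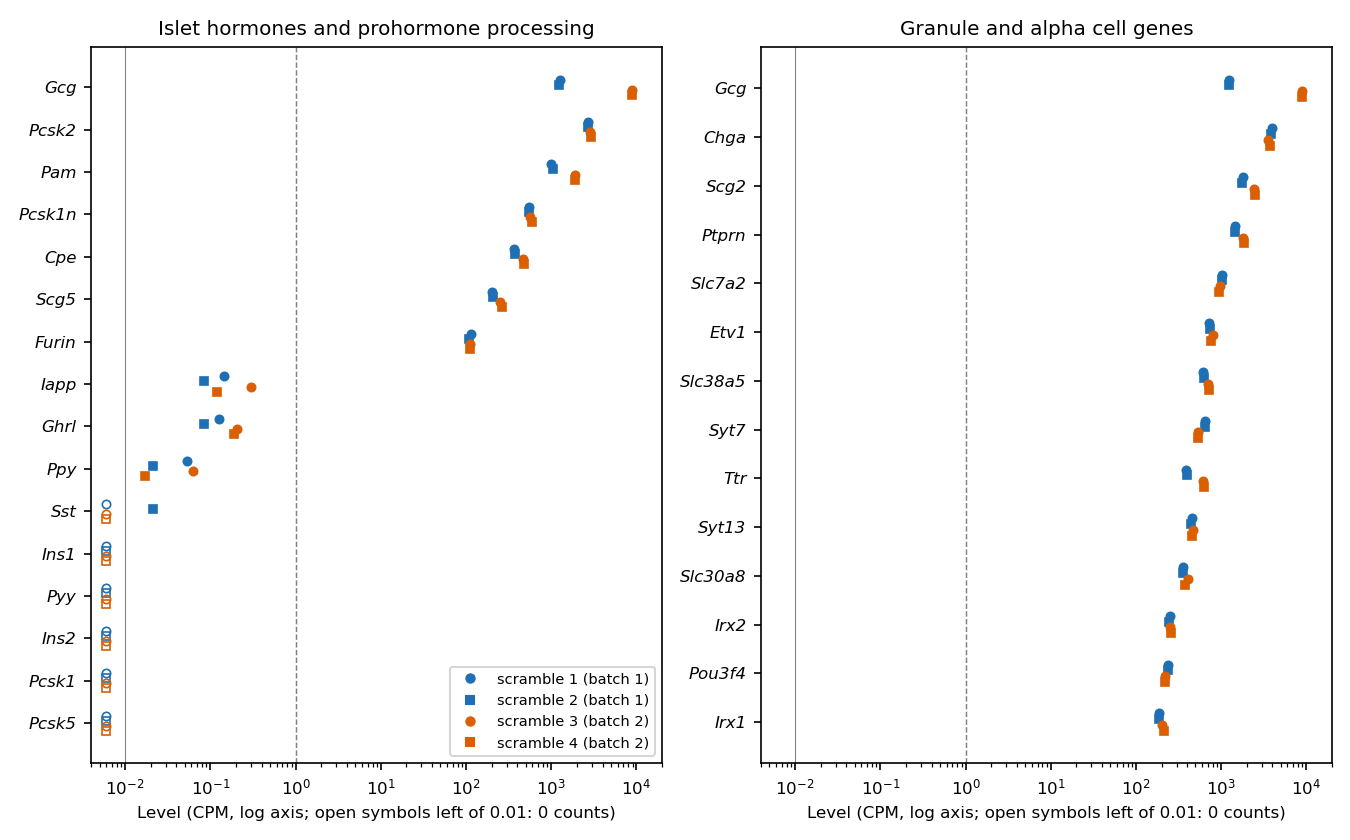
Level of each gene in each scramble library (x axis, CPM, log scale), for the islet hormone and prohormone processing genes named in the text on the left and the named expressed granule and alpha cell genes on the right. Blue symbols are batch 1 and orange symbols batch 2, open symbols left of 0.01 stand for 0 counts, and the dashed line marks 1 CPM. Gcg shows the widest gap between batches, Pcsk2 sits between 2679 and 2929 CPM, and Ins1, Ins2, Pyy, Pcsk1 and Pcsk5 are open in all 4 libraries.

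Among 24 genes of other peptide hormones and neuropeptides, 3 were expressed (12.5%, against 49.9% of all protein-coding genes). Pomc, the precursor of corticotropin and melanocortins, had 6.54 ± 0.494 CPM (SD, n = 4), Cartpt 2.54 ± 0.274 CPM and Calca, the gene of calcitonin and its related peptide, 1.82 ± 0.433 CPM. Crh, Edn1 and Ucn3 were at 0 in all 4 libraries. Penk (chromosome 4, positions 4133531 to 4138819, minus strand), the enkephalin precursor, was low by the rule because it reached 1 CPM in batch 2 alone. It had 5 counts in replicate 1, 0 in replicate 2, 1920 in replicate 3 and 1938 in replicate 4. This made 30.0 and 33.3 CPM in the libraries of batch 2.

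Of 13 genes that process prohormones, 9 were expressed (69.2%, against 49.9% of all protein-coding genes). Pcsk2 had 2679, 2716, 2820 and 2929 CPM in replicates 1 to 4. It thus varied little, and its 1163 ± 76.0 TPM placed it above Pcsk1n, a convertase inhibitor, at 852 ± 47.7 TPM. Pcsk1 and Pcsk5 had 0 counts in every library, so the convertase of glucagon-like peptide production was below 0.0133 CPM. Pam, whose enzyme amidates peptides, had 998 and 1042 CPM in batch 1 and 1886 and 1883 CPM in batch 2. Cpe, the carboxypeptidase that trims cut peptides, had 368 and 373 CPM in batch 1 and 468 and 482 CPM in batch 2. Scg5, the chaperone of PC2, had 201 and 208 CPM in batch 1 and 253 and 263 CPM in batch 2. For these 3 genes the batches did not overlap, as for 63.4% of all 16682 genes tested between batches (32.8% higher and 30.6% lower in batch 2). All 3 also passed edgeR's test between batches, described below, with adjusted p of 7.3e-09 for Pam, 1.9e-05 for Cpe and 5.0e-05 for Scg5, and in each of 11 alternatives (highest adjusted p 0.0017). Furin, a convertase of the Golgi, was steady at 110.4 ± 2.49 CPM.

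The granule genes were expressed without exception, 16 of 16, against 49.9% of all protein-coding genes. Their median was 369.5 CPM against 1.45 CPM over all protein-coding genes. Chga had 3932, 3862, 3500 and 3742 CPM in replicates 1 to 4. Scg2, encoding secretogranin 2, had 1795 and 1771 CPM in batch 1 and 2455 and 2527 CPM in batch 2, so its batches did not overlap. Ptprn, a granule membrane protein known as an autoantigen in type 1 diabetes, had 1640 ± 206 CPM. Syt13, a synaptotagmin, had 455 ± 9.18 CPM, and Syt7, a calcium sensor of exocytosis, stood at 648 and 651 CPM in batch 1 and 541 and 533 CPM in batch 2. Slc30a8, the zinc transporter of insulin granules, reached 376 ± 24.4 CPM in this insulin-negative line.

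The alpha cell label was checked on its markers. Irx2, a homeobox factor of alpha cells, had 247.7, 247.3, 249.3 and 260.7 CPM in replicates 1 to 4. Ttr, the transthyretin gene, had 386 and 396 CPM in batch 1 and 619 and 629 CPM in batch 2. Nkx2-2, an endocrine homeobox factor, had 252, 238, 226 and 234 CPM. These markers and Gcg were expressed in every library. So were 13 of 15 genes of the alpha cell list (86.7%, against 49.9% of all protein-coding genes), with a median of 197.7 CPM. Gc, the vitamin D binding protein that alpha cells of mouse islets make, and Loxl4 were the exceptions, with 5 and 4 counts in total. Etv1, an ETS factor, had 760 ± 33.1 CPM and Pou3f4, a POU factor, 229 ± 12.2 CPM.

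Of 15 genes better known from beta cells, 7 were expressed and 4 (Ins1, Ins2, Pdx1 and Ucn3) had 0 counts, near the 49.9% expressed and 24.0% undetected of all protein-coding genes. Nkx6-1, a beta cell homeobox factor, had 118 and 119 CPM in batch 1 and 148 CPM in both libraries of batch 2. G6pc2, the islet glucose-6-phosphatase, had 91.8, 103, 130 and 142 CPM in replicates 1 to 4. Mafa, a factor of mature beta cells, had 3.16 ± 0.431 CPM. Prlr, the prolactin receptor, had 9.09 and 11.96 CPM in batch 1 and 43.1 and 45.8 CPM in batch 2. Nkx6-1, G6pc2 and Prlr were higher in both libraries of batch 2 than in either of batch 1, as were 32.8% of all tested genes. Of 8 genes from delta, PP and epsilon cells, Rbp4 alone was expressed, at 1240 ± 32.8 CPM. Without replicate 1, in batch 2 alone, or at 0.5 CPM, 2 of the 8 were. Hhex, the delta cell factor, had 1 count in total.

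Of 30 islet transcription factor genes, 23 were expressed (76.7%, against 49.9% of all protein-coding genes). Isl1, a LIM homeobox factor of all islet endocrine cells, had 315 ± 22.7 TPM (SD, n = 4), Neurod1 had 295 ± 20.02 TPM and Nkx2-2 had 274 ± 26.9 TPM. Fev, a serotonergic and endocrine factor, had 316 ± 84.7 TPM. The ranges of these levels overlap. Within each library Isl1 was above Neurod1 and Nkx2-2, whereas Fev was the highest of these factors in both libraries of batch 1 and below Isl1 in both of batch 2. Pax6, a paired box activator of the glucagon gene, had 167 ± 4.06 CPM, Myt1 196 ± 13.5 CPM and St18 157 ± 3.60 CPM. Neurog3, the factor of endocrine progenitors, had 0 counts, as had Foxa1 and Onecut1. Their paralogs Foxa2 and Onecut2 were expressed at 103 ± 5.44 and 55.8 ± 7.89 CPM. Pax4, Hnf4a, Mnx1 and Lmx1a had between 1 and 6 counts in total. Hnf4a, which encodes a nuclear receptor of beta cells and liver, had 3 counts.

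Of 28 receptor genes for peptide and protein hormones, 9 were expressed (32.1%, against 49.9% of all protein-coding genes). Another 4 (Sstr1, Sstr4, Glp2r and Npy5r) had 0 counts, as had 24.0% of all protein-coding genes. With a threshold of 10 counts a library in place of 1 CPM, 18 of the 28 were expressed. Igf2r, a sorting receptor that also binds IGF2, had 88.4 ± 12.7 TPM, and Oxtr, the oxytocin receptor, had 91.0 ± 30.8 TPM. Oxtr stood at 90.5 and 93.6 CPM in batch 1 and 180.4 and 167.9 CPM in batch 2, without overlap. Avpr1b, the vasopressin V1b receptor, had 85.1, 93.3, 88.1 and 99.5 CPM in replicates 1 to 4. Sstr3 was the only expressed somatostatin receptor of 5, with 34.2 ± 0.793 CPM. Sstr2, the receptor known for somatostatin's action on rodent alpha cells, had 0.509 ± 0.112 CPM. Npy1r, a neuropeptide Y receptor, had 35.4 ± 2.49 CPM. Insr, the insulin receptor, had 57.2 ± 1.74 CPM, while Igf1r, the receptor of IGF1, had 2, 1, 1 and 0 counts in replicates 1 to 4. Its ligand gene Igf1 was expressed, as given below. The receptors of glucagon and glucagon-like peptide 1, Gcgr and Glp1r, had 2 counts each in all 4 libraries together, and Gipr, the receptor of the incretin GIP, had 0.333 ± 0.0534 CPM.

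**Figure D3:**
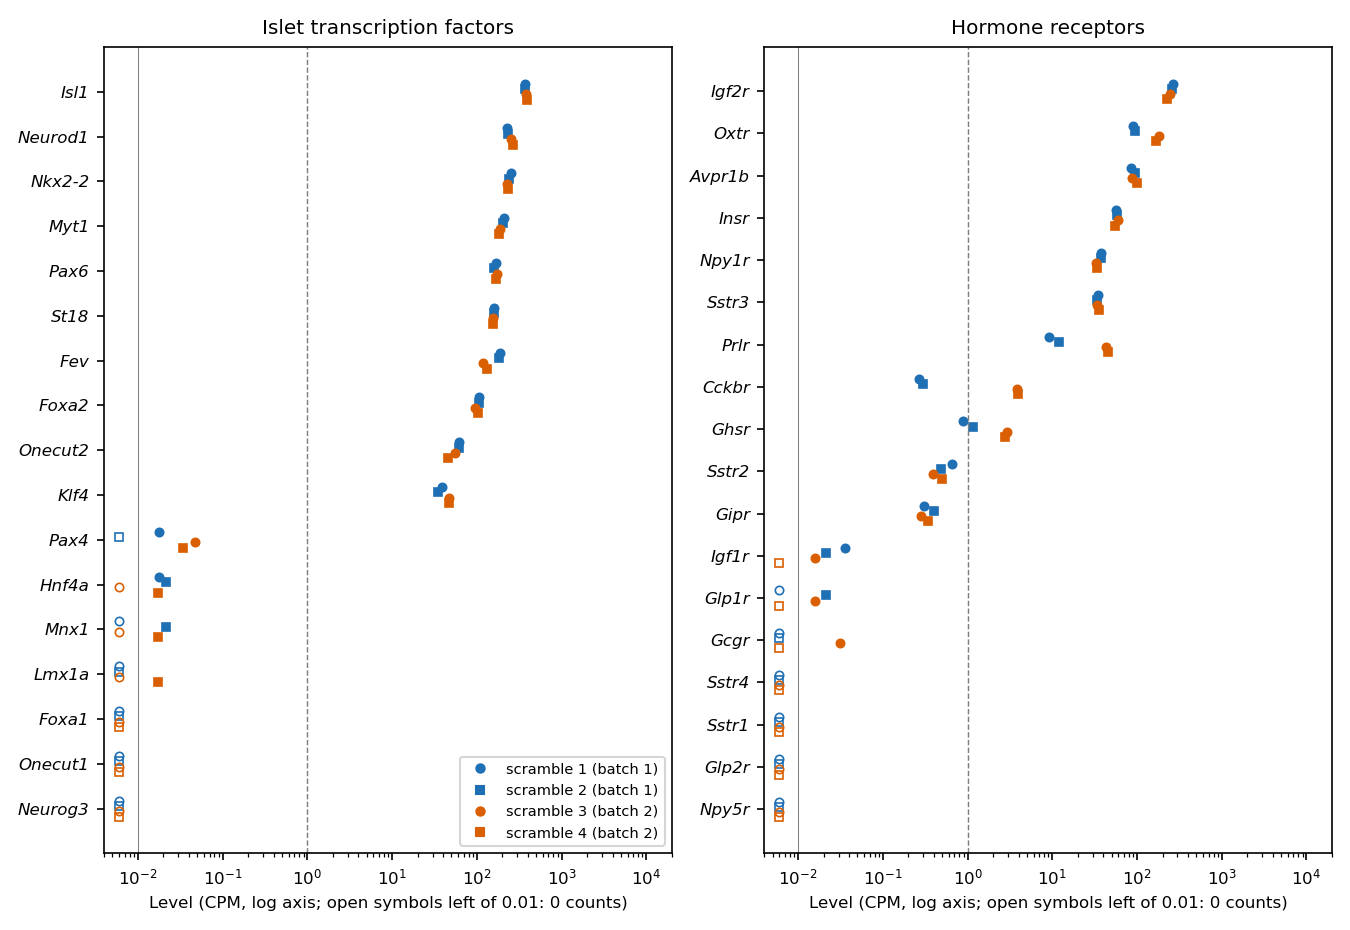
Level of each gene in each scramble library (x axis, CPM, log scale), for the islet transcription factors named in the text on the left and the named hormone receptors on the right. Blue symbols are batch 1 and orange symbols batch 2, open symbols left of 0.01 stand for 0 counts, and the dashed line marks 1 CPM. The factors fall into expressed genes and 7 genes with at most 6 counts, while the receptors spread over the whole range, with Gcgr, Glp1r and Igf1r at 2 to 4 counts in total.

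Receptors of small ligands were mostly low, with 12 of 41 expressed (29.3%, against 49.9% of all protein-coding genes). Grin1, the obligate subunit of NMDA receptors, had 254 ± 7.08 CPM, and Gria3 and Gria2, subunits of AMPA receptors, had 108 ± 7.09 and 51.4 ± 3.91 CPM. Gabbr1, a subunit of the GABA-B receptor, had 22.3 and 23.6 CPM in batch 1 and 32.1 and 30.9 CPM in batch 2. Its partner Gabbr2 had 3 counts, all in replicate 2. Adra1a, Adra2c, Htr1f, Gria4 and Glra1 had 0 counts. Adrb1, a beta adrenergic receptor, had at most 0.395 CPM in a library. Over the whole family of amine receptors, 1 of 50 genes, the muscarinic receptor Chrm4, was expressed, at 1.75 ± 0.185 CPM.

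Of 48 matched genes of ion channels, 31 were expressed (64.6%, against 49.9% of all protein-coding genes) and Kcna3, Kcnb2 and Kcnd3 had 0 counts. This is a chosen list. Over families defined by symbol, 25 of 94 potassium channel genes (26.6%) and 9 of 26 calcium channel genes (34.6%) were expressed. So were 5 of 14 sodium (35.7%) and 13 of 24 chloride channel genes (54.2%). The symbols Kcnk17 and Scn2a1 did not match the table. Abcc8 and Kcnj11, the subunits of the ATP-sensitive potassium channel, had 122 ± 17.9 and 108 ± 23.2 TPM. Hcn2, a pacemaker channel, had 274 ± 22.2 TPM, with 264, 270, 253 and 273 CPM in replicates 1 to 4. Cacna1c, an L-type calcium channel, had 381 ± 27.2 CPM, and its auxiliary subunit Cacna2d1 226 ± 10.5 CPM. Kcnh2, a subunit of voltage-gated potassium channels, had 199.7 ± 3.19 CPM. Ano1, a calcium-activated chloride channel, had 44.6 and 44.9 CPM in batch 1 and 13.9 and 13.8 CPM in batch 2, the widest relative gap between batches among the channels given here. Scn8a was the highest sodium channel gene at 66.2 ± 2.49 CPM, and Scn9a had 7.07 ± 1.89 CPM.

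Among 35 transporter genes, 23 were expressed (65.7%) and none had 0 counts, against 49.9% and 24.0% of all protein-coding genes. This is a chosen list. In the whole family of 342 solute carriers, 170 (49.7%) were expressed and 39 had 0 counts. Amino acid carriers led the list. Slc38a5, a glutamine carrier known to rise in alpha cells when glucagon signalling is blocked, had 975 ± 75.2 TPM, Slc38a4 462 ± 74.5 TPM, Slc7a5, the light chain of a leucine carrier, 434 ± 28.7 TPM and Slc7a2, a cationic amino acid carrier, 360 ± 43.7 TPM. Slc7a2 had 1010, 1034, 982 and 944 CPM in replicates 1 to 4, and its span overlaps an annotation on the other strand. Slc38a4 had 512 and 511 CPM in batch 1 and 705 and 664 CPM in batch 2. For glucose, Slc2a1 had 75.7 ± 12.3 CPM and Slc2a3 61.5 ± 6.22 CPM, whereas Slc2a2, the transporter of beta cells and liver, had 29 counts in total. Of 20 genes of glucose use, 14 were expressed (70%, against 49.9% of all protein-coding genes). Hk1, a high-affinity hexokinase, had 443, 440, 501 and 542 CPM in replicates 1 to 4, and G6pc, the glucose-6-phosphatase of liver, had 0 counts. Pkm, a pyruvate kinase, had 834 ± 159.6 CPM, and Pfkp, a phosphofructokinase, 380 ± 37.9 CPM.

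Markers of other cells were examined as whole lists, whose counts stand against the 49.9% of all protein-coding genes that were expressed. Acinar genes had 1 expressed member of 13, Cela1 at 6.67 ± 0.520 CPM, and 6 at 0, among them Prss1, Pnlip and Ptf1a; their summed level ran from 7.66 to 8.12 CPM per library. Of 8 duct genes 4 were expressed (50%), led by Car2, a carbonic anhydrase, at 93.1 ± 1.67 CPM, while Krt19 had 3 counts and Cftr 0. Of 8 endothelial genes 1 was expressed, Plvap, with 1.71 and 1.67 CPM in batch 1 and 5.83 and 7.32 CPM in batch 2, and Pecam1, Cdh5 and Kdr stayed under 0.36 CPM. Of 8 immune genes 1, Cd68, was expressed, at 1.94 ± 0.406 CPM, with 1 count of Ptprc and 0 of Adgre1, and without replicate 3 the count of expressed immune genes was 2. Of 8 mesenchymal genes Col1a2 and Pdgfra were expressed at 14.8 ± 2.59 and 4.98 ± 2.15 CPM, and Col3a1 and Acta2 had 0 counts. Of 5 Schwann cell genes 2 were expressed, with summed levels of 5.15 to 5.85 CPM per library, and with Sox10 and S100b at 0. Of 8 neuronal genes 5 were expressed, with summed levels of 1096 to 1237 CPM. Elavl3, an RNA-binding protein of neurons, had 393 ± 7.44 CPM and Tubb3, a neuronal tubulin, 150.02 ± 19.03 CPM, but Stmn2 had 15 counts in total. Syt1, the synaptotagmin of synaptic vesicles, was low by the rule, with 0.767 and 0.466 CPM in batch 1 and 19.05 and 18.8 CPM in batch 2.

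Genes of dividing cells were expressed in 13 of 14 cases (92.9%, against 49.9% of all protein-coding genes). Mki67 had 873 ± 37.2 CPM, Mcm2, a helicase subunit, 623 ± 8.87 CPM and Top2a, a topoisomerase, 626 ± 18.3 CPM. The exception was Ccnd1, cyclin D1, at 0.425 ± 0.160 CPM, whereas Ccnd2 had 97.0 ± 6.85 CPM. Of 13 interferon response genes, which can respond to transfected RNA, 4 were expressed (30.8%). Ifit2 had 5.34 ± 0.564 CPM, and Ifit1, Mx1 and Isg15 had 1, 5 and 8 counts in total.

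Detection was also counted over gene families defined by symbol. Of 1135 olfactory receptor genes 0 were expressed and 97 had at least 1 count, and of 333 vomeronasal receptor genes 1 was expressed, Vmn1r139, at 1.34 ± 0.331 CPM. Among the other families the expressed share ran from 0 of 38 taste receptors to 8 of 8 E2F factors, which drive the cell cycle. Solute carriers were near the share of all protein-coding genes, with 170 of 342 expressed (49.7%). Potassium channels were below it, with 25 of 94, as were HOX factors with 6 of 39 and keratins with 3 of 53. Zinc finger genes named Zfp were above it, with 322 of 394, and so were nuclear receptors with 27 of 44, led by Ppard, Nr4a1 and Nr2c2. Of 14 NKX factors 4 were expressed, and of 12 LIM homeobox factors Isl1 was the only one. Of 6 IRX factors 4 were, led by Irx2 and Irx1. No test was made of these shares.

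**Figure D4:**
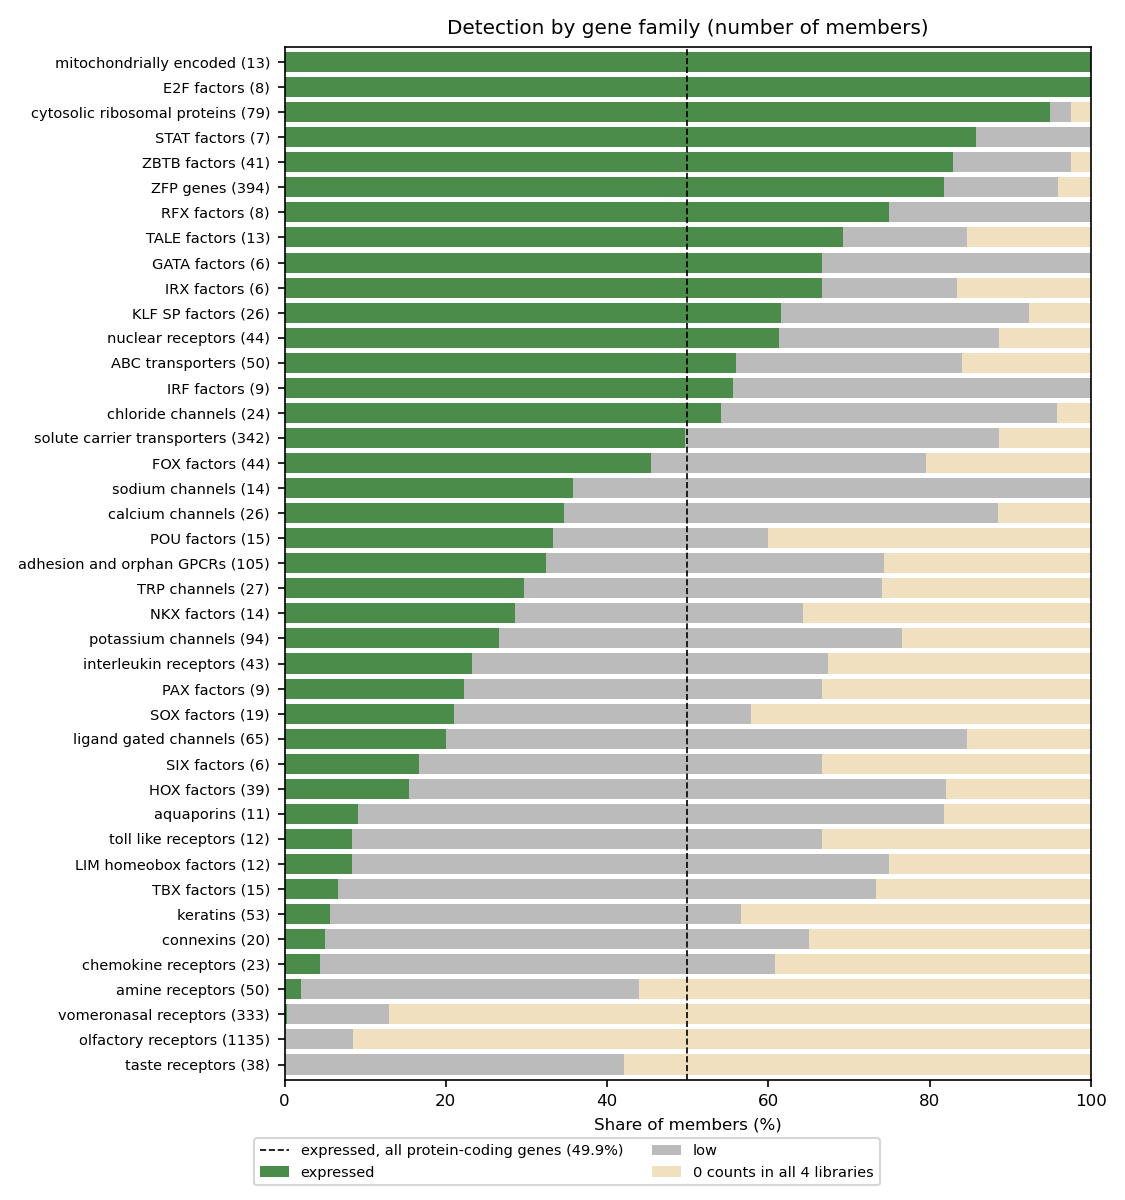
Share of members of each gene family (x axis, percent) that were expressed (green), low (grey) or at 0 counts in all 4 scramble libraries (beige), with the number of members after each name. The dashed line marks the 49.9% of all protein-coding genes that were expressed. E2F factors and mitochondrially encoded genes are at the full share, and olfactory and taste receptors have no expressed member.

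The coefficient of variation of single genes was smaller within a batch than over both batches. Its median for an expressed gene was 2.32% in batch 1, 3.03% in batch 2 and 5.69% over all 4 libraries. These values are not on equal terms, since at the same spread a median SD from 2 libraries tends to be smaller than one from 4. By the chi-square of the counts per degree of freedom, the pair of batch 2 lay within the range of pairs from different batches. It was 77.6 between replicates 3 and 4, 20.9 between replicates 1 and 2, and 41.9 to 98.8 for pairs from different batches. For 11309 of the expressed genes (92.1%) the highest library was under 1.5 times the lowest, and for 55 it was at least 4 times the lowest. The batches were compared by edgeR's quasi-likelihood test with Benjamini-Hochberg adjustment over 16682 genes, with 2 libraries a batch and 2 residual degrees of freedom. At an adjusted p under 0.05, 4379 genes (26.2%) differed, 2472 (14.8%) higher and 1907 (11.4%) lower in batch 2. Their median absolute difference was 0.30 on the log2 scale, with quartiles of 0.18 and 0.72, and 653 were higher and 165 lower by at least 1. Without replicate 1 the count was 2615 and without replicate 2 it was 2697. With total counts in place of TMM the split turned to 1819 higher and 2656 lower, and the median of all genes moved from 0.0050 to -0.047 on the log2 scale. Batch was the only labelled difference between these libraries, so its components cannot be told apart.

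Among protein-coding genes with a mean of at least 10 CPM, the largest rises in batch 2 were those of Penk, B3gat1, Phactr1, Ctnna1, Gcg, Cntn1, Nrcam and Csn3. At least Penk, B3gat1, Ctnna1 and Csn3 were under 10 CPM in both libraries of batch 1, so they reached that mean only through batch 2. These genes were picked for the size of their change, so passing a threshold in the same libraries is no separate support. Gcg rose by 2.83 on the log2 scale (SE 0.03, edgeR adjusted p = 7.0e-14, higher in 2 of 2 libraries), and the adjusted p was at most 8.0e-11 over 11 alternatives. B3gat1, which makes the HNK-1 carbohydrate epitope of neural cells, had 0.321 and 0.318 CPM in batch 1 and 20.5 and 22.6 CPM in batch 2. Ctnna1, alpha-catenin of adherens junctions, had 2.35 and 2.86 CPM in batch 1 and 24.3 and 22.9 CPM in batch 2. Cntn1 and Nrcam, neural adhesion molecules, were 5.86-fold and 4.67-fold higher in batch 2. Csn3, the milk protein kappa-casein, went from 5.76 and 6.30 CPM to 27.0 and 29.0 CPM, and Prlr, whose ligand induces caseins in the mammary gland, was 4.24-fold higher. Meg3 and Rian, maternally expressed noncoding RNAs of an imprinted cluster on chromosome 12, were 4.40-fold and 4.38-fold higher. All these genes passed the threshold in each of the 11 alternatives.

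Among the 8 largest falls, picked in the same way, were those of Faim2, Th, Igf1, Ano1, Cdh11, Dtx1 and Neurod6. Th, tyrosine hydroxylase of catecholamine synthesis, had 131.4 and 139.6 CPM in batch 1 and 38.05 and 43.4 CPM in batch 2, a 3.33-fold difference. Igf1 had 34.3 and 36.6 CPM in batch 1 and 11.1 and 10.6 CPM in batch 2. Cdh11, a cadherin, was 2.48-fold lower in batch 2. Each of the 8 was lower in every library of batch 2 and passed the threshold in each alternative. Of 16 HOX genes tested, 9 were lower, among them Hoxa5 by 2.19-fold, and 0 higher in batch 2. Of all tested genes 11.4% were lower and 14.8% higher. Few HOX genes were expressed, 6 of 39 (15.4%, against 49.9% of all protein-coding genes), and these had a median of 3.20 CPM. Other families also leaned lower, as ZBTB factors (13 lower and 2 higher of 39 tested) and Zfp genes (67 lower and 28 higher of 350). KLF and SP factors leaned the other way (2 lower and 7 higher of 21). Fgl1, a secreted liver protein named after its values were seen, had 11.3 and 10.7 CPM in batch 1 and 0.281 and 0.309 CPM in batch 2.

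**Figure D5:**
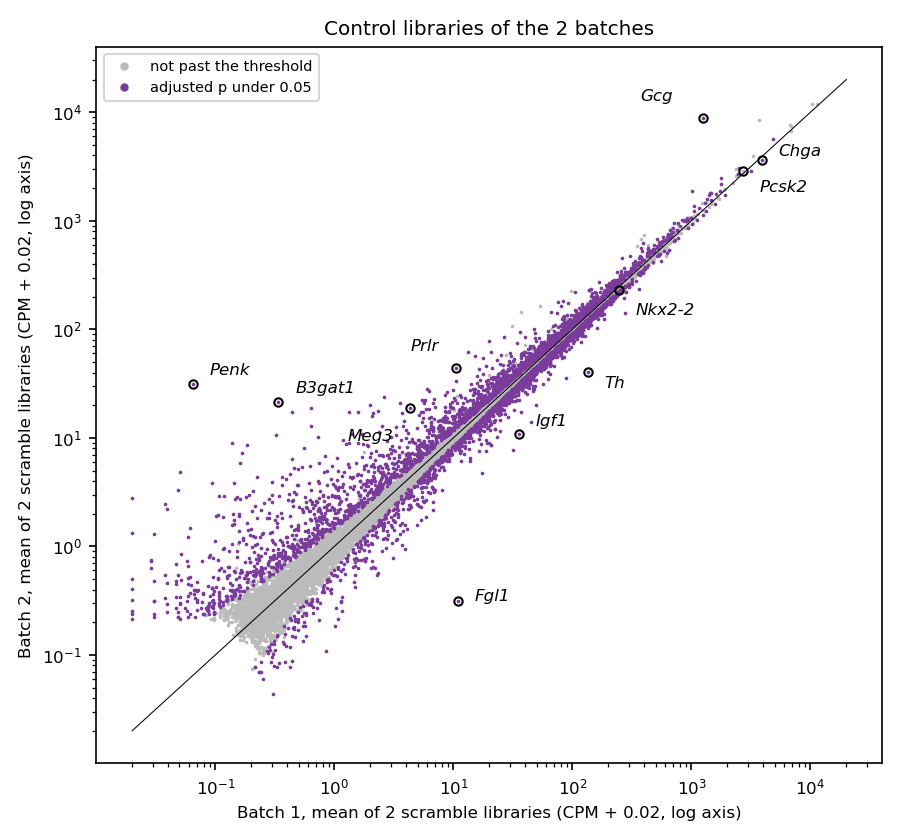
Mean level of each tested gene in the 2 scramble libraries of batch 1 (x axis) and of batch 2 (y axis), in CPM plus 0.02 on log axes, with genes at an adjusted p under 0.05 in purple. The line marks equal levels. Penk, B3gat1, Gcg, Prlr and Meg3 lie above it, Th, Igf1 and Fgl1 below it, and Pcsk2, Chga and Nkx2-2 close to it.

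The lists moved unequally between batches. Of the tested members, 8 of 16 granule genes were higher and 4 lower, 6 of 15 genes of glucose use were higher and 1 lower, and 10 of 25 transporters were higher and 2 lower. Of 37 channel genes 8 were higher and 12 lower, and of 23 islet transcription factors 6 were higher and 6 lower. The median log2 difference was 0.14 for granule genes, 0.24 for glucose use, 0.12 for transporters, 0.00 for channels and 0.01 for the transcription factors, against 0.0050 over all genes tested. Genes of dividing cells had 1 higher and 1 lower of 14, with a median of -0.01. At a share of 26.2% over all genes, such counts are a description. With total counts in place of TMM, granule genes had 5 higher and 4 lower, transporters 5 higher and 3 lower and the transcription factors 5 higher and 8 lower. With that scaling the median was 0.085 for granule genes, 0.10 for glucose use, -0.05 for channels, -0.04 for the transcription factors and 0.07 for transporters. Genes of dividing cells then had 0 higher and 2 lower. Replicate 4 stood apart for glucose use, whose summed level was 2454, 2468, 2825 and 3231 CPM in replicates 1 to 4, and without it the median was 0.09, with 7 of 16 higher and 1 lower. Without replicate 3, 9 of 17 were higher and 2 lower. Without replicate 1 or 2 the transporters counted higher fell to 4 and 5 of 26, and the granule genes to 5 of 16 higher and 2 lower. The transcription factors counted lower fell to 3 of 23 without replicate 1. Of the 14 genes of dividing cells, edgeR's test called 0 without replicate 1 or 2 and 3, all of them higher, without replicate 4. Mki67, Isl1, Pax6, Kcnh2 and Insr differed by at most 0.06 on the log2 scale and did not pass the threshold, although Mki67 passed it without replicate 3 (log2 -0.11, edgeR adjusted p = 0.014). Of 209 tested genes selected by the naming rule, which itself takes in the largest changes, 98 passed it, and 59 of these did so in every alternative that gave a value.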

How the data were processed

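Whole-number counts per gene, not normalized, were deposited by the authors in 1 table, from which the 4 scramble columns were used; 0 value columns were left unmapped. The submitters' processing notes name STAR, featureCounts, FastQC, DESeq2 and the build mm10 without roles, and the table's name mentions cutadapt. The use of strand and of multi-mapping reads is not given in the sources used here, so reads of overlapping genes (Pcsk2, Penk, B3gat1, Slc7a2 and Gapdh among those named) cannot be told apart from those of their partners. All 55536 identifiers and symbols matched the GENCODE M21 annotation of GRCm38, which gave positions and exon lengths. Totals ran from 45954151 to 64185987 counts per library, and 0 counts lay in rows without a gene. Intervals and floors cover counting error only, since PCR duplicates cannot be removed.

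CPM used TMM-scaled library sizes, and TPM used the union of exons. Batches were compared with edgeR 4.0.16 in R 4.3.3 (filterByExpr, robust quasi-likelihood, two-sided, adjusted over all tested genes). Alternatives used limma 3.58.1, DESeq2 1.42.0, other scalings, filters and thresholds, each library left out, and each batch alone. No pair of libraries agreed within counting noise (chi-square per degree of freedom from 20.9 to 98.8), which does not show that they are separate cultures; each was counted as 1 sample, as labelled. On simulated counts for this comparison (16417 genes, 200 changed), the test recovered 100% of changes of 1 and 88% of changes of 0.5 on the log2 scale, with 15 false among 203 calls, and made 6 calls with no gene changed.

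The libraries, lists, families and tests were chosen with earlier results of these data known. Genes named were taken from the 15 highest by TPM and the 10 highest by CPM, cell type markers, up to 6 expressed members with the highest CPM and the undetected members of each list, up to 3 members of each family, and the 8 largest rises and falls between batches. Other members named, such as Foxa2, Onecut2, Igf1r, Gcgr, Glp1r, Gipr, Sstr2, Slc2a1, Slc2a2, Slc2a3, Kcnj11, Gabbr2, Adrb1, Syt1, Ccnd1 and Ccnd2, were chosen after their values were seen. Values of some members are not reported here.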

Additional observations from a re-analysis of the deposited data

Results flagged for a closer look

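In each of the 204 sets of 4 levels that were examined for a library far from the others, the gap of the extreme library to its nearest neighbour was divided by the range. It exceeded Dixon's critical value in 4 sets. That value flags about 1 in 20 sets (10.2) by chance where all 4 levels come from 1 population. These came from 2 batches, whose levels did not overlap for 63.4% of tested genes. Such a gap between batches keeps the share small, so a library far from its batch partner can go unflagged. The 10.2 sets are therefore not the number to set beside these 4. All 4 flagged sets concerned scramble replicate 4. Gapdh, a glycolytic enzyme, was highest there at 2825 CPM, with the next library at 2392 CPM (share 0.913). Il3ra, a subunit of the interleukin 3 receptor, was highest at 25.2 CPM against 22.5 CPM (share 0.935). Irx2, one of the alpha cell markers, was highest at 260.7 CPM against 249.3 CPM (share 0.855). Cacna2d1 was lowest at 210.3 CPM against 230.2 CPM (share 0.904).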

How the results depend on the processing

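The number of genes expressed (12278), of protein-coding genes expressed (10993) and of genes at 0 counts (26379) stayed within 1.5 times under the alternatives run for them, which changed the scaling, the threshold, its unit and the libraries used. Of the 15 genes highest by TPM, 9 were still among the 15 with the median transcript length in place of the exon union, so that order depends on the gene length chosen. With genes under 200 bp of exon left out, an alternative chosen after the data were seen, 13 were. The count of genes that differed between batches ran from 2615 to 5112 with a library left out (higher in batch 2, 1595 to 2595; lower, 1017 to 2559). It was 3028 with the DESeq2 Wald test, 3691 with edgeR's likelihood ratio test, 4159 with limma-voom, 4505 with DESeq2 size factors, 4475 with total counts alone, 4956 without a filter and 3274 at a mean of at least 5 CPM. The cause of these moves was not tested, but leaving out a library leaves 1 batch with a single library, which is then assumed to vary like the other batch. Among 2272 values of the batch difference of single genes, 141 lost the threshold and 71 gained it. None that passed it, with the main test or in the alternative, changed sign, whereas 79 values that passed in neither did. Gm42418 ran from -2.28 without replicate 4 to 3.23 without replicate 1 on the log2 scale. Of 350 list counts under other settings, 34 moved by more than 1.5 times, all in lists of other peptides, delta, PP and epsilon cells, peptide hormone receptors, acinar, duct, endothelial, immune, mesenchymal and Schwann cells or the interferon response. No paired analysis was possible because the libraries belong to a single treatment group and the batches share no replicate numbers. The number of libraries, 2 a batch, limits the precision of each difference. The depth limits detection to 0.0133 CPM over the 4 libraries and to between 0.0469 and 0.0636 CPM in a single one.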

Other observations

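Several other genes of glucose use were highest in replicate 4, beside Gapdh. Ldha, lactate dehydrogenase A, had 53.8 and 53.1 CPM in batch 1, 107.9 CPM in replicate 3 and 223.6 CPM in replicate 4. Slc16a3, a lactate exporter, had 1.75, 1.78, 4.87 and 9.75 CPM in replicates 1 to 4, and Pfkl, a phosphofructokinase, had 58.2, 59.3, 62.7 and 89.6 CPM. Pkm had 703, 720.2, 867 and 1047 CPM, and Slc2a1 had 66.0, 69.0, 74.2 and 93.3 CPM. Ldha and Slc16a3 did not pass the threshold between batches, with edgeR adjusted p of 0.198 and 0.128, while Pkm did at 0.042 and kept it in 9 of 11 alternatives. These genes were chosen after their values were seen.

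The levels of a few imprinted genes, chosen after their values were seen, are given as values only. Peg3, a paternally expressed zinc finger gene, had 3025 ± 181 CPM (SD, n = 4) and Peg10, a gene derived from a retrotransposon, 710.2 ± 64.7 CPM. Igf2 had 1 count in total, Dlk1 had 0 counts in all 4 libraries, and H19 had 0.135 ± 0.0364 CPM.

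A pair of receptors that were low by the rule reached 1 CPM in both libraries of batch 2 but not in both of batch 1. Cckbr, a receptor of cholecystokinin and gastrin, had 0.267 and 0.297 CPM in batch 1 and 3.81 and 3.94 CPM in batch 2. Ghsr, the ghrelin receptor, had 0.874 and 1.17 CPM in batch 1 and 2.92 and 2.79 CPM in batch 2. In all, 270 genes reached 1 CPM in both libraries of batch 2 and in neither of batch 1, and 71 did the reverse.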
